A study of Drosophila melanogaster with 2 samples.

Results

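The lysozyme genes of the LysB cluster are LysB, LysC, LysD, LysE, LysP, LysS and LysX of Drosophila melanogaster. They were chosen as the probe sets whose platform annotation carries 1 of these 7 symbols, which gave 7 of the 10845 genes with a named probe set, with 1 probe set per gene. The group was selected on the measured ratios of LysP and LysX, which differ between the genotypes in opposite directions, so the values of all members are given as a description, with no test.

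Transcripts were measured with the first Affymetrix chip for the Drosophila genome, on 1 array per genotype and 2 arrays in all. The control genotype was yw, with the marker mutations yellow (body colour) and white (eye colour), and the other was a homozygous mbf1 mutant whose allele the labels do not name. Both samples are labelled as embryos of 16 h, counted from egg laying, raised at 25 °C, with no treatment given, and how many animals went into each RNA extract is not given in the sources used here. MBF1, multiprotein bridging factor 1, is a coactivator: it joins DNA-bound activators to the TATA-binding protein. Without replicates the values have no replicate error, and a difference is a difference of 2 arrays. Whole animals were used, so fewer cells of a type and less RNA per cell cannot be told apart.

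Lysozymes cut the sugar backbone of peptidoglycan, the wall polymer of bacteria. In Drosophila the enzymes of this cluster are known as digestive: they serve a gut that feeds on microbes and are not among the classical antimicrobial genes switched on by infection. The members are known to be used in different places, LysB, LysC, LysD and LysE in the midgut, LysS in the gastric caeca of the larval midgut, LysP in the salivary gland of the adult, and LysX in the gut around metamorphosis.

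Signals below are intensities after the mbf1 array was divided by 1.47, the median difference between the arrays over bright probe sets. The mbf1 transcript, read by 1 probe set, had a signal of 478.7 in yw and 22.1 in mbf1. A signal under 17.7, the 40th percentile of both arrays pooled, was raised to this floor before a ratio was taken, and such a ratio is a lower bound on the fold, written with the words at least. Genes above the floor on 1 or both arrays count as measured. These were 7677 genes and included all 7 members, 6 of which were above it on both arrays.

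Genes of adult tissues gave strong signals in both samples, while the labels call both embryos. All 12 testis genes and all 11 accessory gland genes were above the floor on both arrays, with summed signals of 16061 and 14506 for testis and 9583 and 8496 for the accessory gland. The 5 adult eye genes with a probe set, of 12 listed, had summed signals of 2641 and 2662. Of 15 genes of embryonic patterning and neurogenesis with a probe set, 7 were above the floor in yw and 8 in mbf1, with summed signals of 278 and 289. This list holds segmentation, mesoderm and neuroblast genes. No list of genes active late in the embryo was read, so the stage of the samples was not tested. In these 4 lists 0 genes were at least 2-fold apart, beside 1.51% higher and 1.63% lower of all measured genes. The median log2 ratios were -0.02 for testis, 0.06 for accessory gland, -0.01 for eye and 0.08 for the embryonic list. Without scaling these medians were 0.53, 0.62, 0.55 and 0.65, beside 0.50 for all measured genes. In that setting 2 testis genes and 1 eye gene were at least 2-fold higher.

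LysX was the 1 member that was 2-fold or more higher in the mutant and LysP the 1 member that was 2-fold or more lower, while the other 5 members differed by less than 2-fold. The background is 116 genes higher, or 1.51% of the measured genes, and 125 lower, or 1.63%. The rule used this contrast, so nothing is read from the members' counts against it. The median log2 ratio of the 7 members was -0.20, beside -0.0011 for all measured genes. The members' median depended on the scaling: it was -0.003 after quantile normalization and -0.01 after loess. With scaling on hybridization controls it was 0.02, where all measured genes had 0.19.

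**Figure D1:**
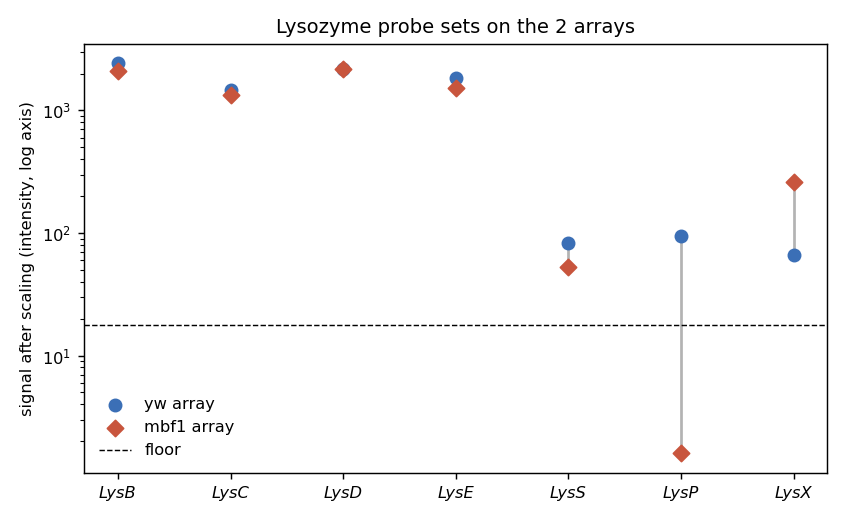
Signal after scaling (intensity, log axis) of each lysozyme probe set on the yw array (circles) and the mbf1 array (diamonds), 1 array each, with the floor as a dashed line. LysP lies at 95.3 on the yw array and at 1.59, under the floor, on the mbf1 array, and LysX is at 65.6 and 263.

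LysP, the lysozyme gene known from the adult salivary gland, had a signal of 95.3 in yw and 1.59 in mbf1. The yw value was brighter than 82.9% of the probe sets on its array, and the mbf1 value was brighter than 4.35% on its own. The gene was thus well above the floor in the control and far under it in the mutant. With the mutant value raised to the floor, the signal in the mutant was at least 5.37-fold lower, a log2 ratio of -2.43. The size of the ratio is set by the floor, since it was -1.41 when the floor was put at the 60th percentile and -3.42 at the 25th. Taken on the values without any floor it was -5.90, which rests on a signal of 1.59 that cannot be told from background here.

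LysX, known from the gut around metamorphosis, differed the other way. Its signal was 65.6 in yw and 263 in mbf1, both above the floor, or 4.01-fold higher in the mutant. The probe set went from brighter than 75.8% of the probe sets on the yw array to brighter than 93.7% on the mbf1 array. Because both values were above the floor, the choice of floor left this ratio as it was. LysX and LysP were each read by 1 probe set of the plain type, whose suffix marks no shared sequence.

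Marker lists of the salivary gland and of midgut regulators were read on the same arrays. The salivary list holds mostly larval glue genes and gland regulators, and no list marks the adult gland or metamorphosis. Of its 16 genes 12 had a probe set and 9 of these were under the floor on both arrays. The other 3 had summed signals of 91.5 in yw and 75.5 in mbf1 and a median log2 ratio of -0.26 (0.30 without scaling). They were sage, at 40.9 and 30.6, fkh, at 22.8 and 19.1, and the glue gene Sgs8, at 27.8 and 25.8. The other 5 of the 6 glue genes with a probe set were under the floor on both arrays. Of the midgut regulators 2 of 6 were measured. They were cad at 0.60, with signals of 58.1 and 87.9, and srp, which was at least 1.30-fold higher, from under the floor at 13.6 to 23.0. The part of tissue make-up or stage in the LysP and LysX values was not tested.

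How far single ratios scatter on these arrays can be read from 260 genes of the chip that had 2 or more probe sets above the floor in both genotypes. The disagreement between 2 probe sets of a gene gave an SD of 0.39 for 1 log2 ratio. It comes from the same 2 arrays and leaves out the spread between animals, extracts and arrays, which these data do not hold. LysP and LysX were selected on their ratios, so nothing is read from setting them beside it.

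**Figure D2:**
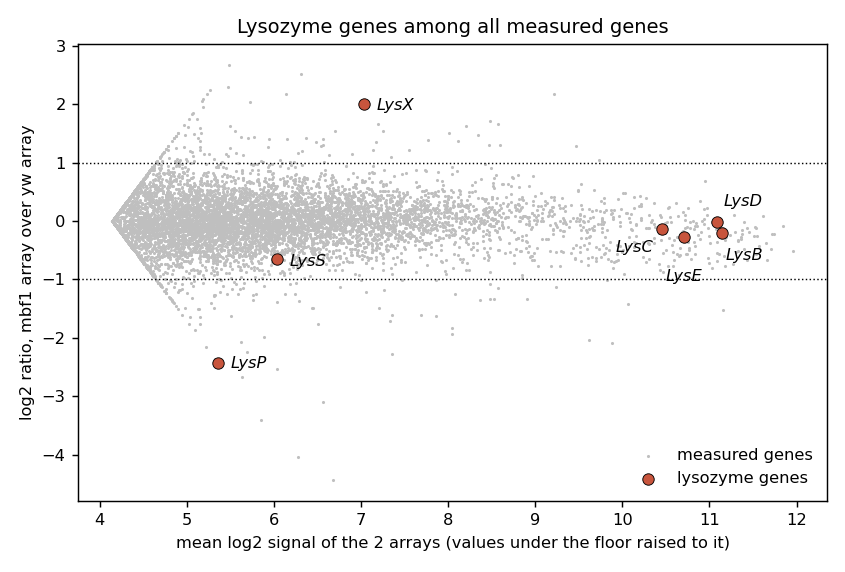
Log2 ratio of mbf1 over yw against the mean log2 signal for all 7677 measured genes (grey) and the lysozyme genes (red), with dotted lines at 2-fold. LysX at 4.01-fold higher and LysP at -2.43 lie outside the dotted lines, and the other 5 members lie between them, LysB, LysC, LysD and LysE at the bright end.

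LysB, LysC, LysD and LysE, the midgut lysozyme genes, were among the brightest probe sets on both arrays. LysB had signals of 2415 and 2105 on the yw and mbf1 arrays, and LysD had 2184 and 2159. LysE had signals of 1841 and 1517. The LysC probe set, whose gene is listed as a pseudogene in the Release 6 gene table while the other 6 members are protein coding, had 1474 and 1344. Over the 4 probe sets and both arrays, the share of probe sets that were dimmer ran from 98.7% to 99.7%. Probe sets differ in how strongly they light up, so these percentiles describe brightness and not transcript number.

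The ratios of these 4 genes lay close to each other. They were -0.20 for LysB, -0.13 for LysC, -0.02 for LysD and -0.28 for LysE, a range of 0.26 on the log2 scale. All were smaller in size than 0.39, the robust SD of the log2 ratio among the 500 measured genes nearest in signal. Their sign depended on the scaling. All 4 were negative in the main setting and positive without scaling, and after quantile normalization or loess 2 were negative and 2 positive. With scaling on hybridization controls LysE was at -0.07 and the other 3 were positive, up to 0.20 for LysD.

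These 4 probe sets carry the suffix of a sequence family, which Affymetrix gave to probe sets whose probes can bind several members of a gene family. A transcript of 1 of these genes may therefore light up the probe sets of the others, so the 4 values are not independent readings. For the LysC probe set, with its pseudogene, the files do not tell which gene was read. For comparison, 26 of the 30 other named family probe sets were measured. At least 2-fold higher were 0 and lower were 2 of these, beside 1.51% and 1.63% of all measured genes. The median log2 ratio of the 26 was -0.32, taken in the main setting only.

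LysS, the gastric caeca gene, had a signal of 82.4 in yw and 52.7 in mbf1. Both values were above the floor, and the signal was 1.56-fold lower in the mutant, a log2 ratio of -0.65. Lower by at least 1.5-fold were 7.74% of all measured genes. The robust SD among genes of like signal was 0.37. Without scaling the ratio was -0.09, and with scaling on hybridization controls it was -0.43. The ratio of LysS was negative in all 12 alternatives.

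**Figure D3:**
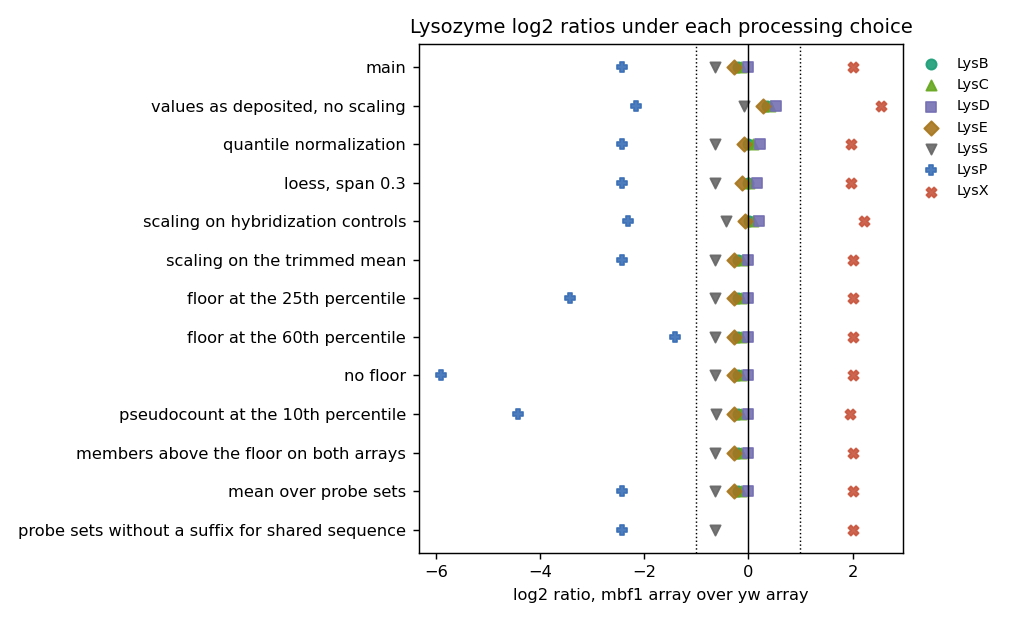
Log2 ratio of mbf1 over yw for each lysozyme gene (marker and colour by gene) under the main setting and 12 alternatives, with dotted lines at 2-fold; LysP has no point where genes had to be above the floor on both arrays, and LysB, LysC, LysD and LysE have none where family probe sets were left out. LysX lies between 1.95 and 2.55 and LysP between -5.90 and -1.41, while LysB, LysC, LysD and LysE cross 0.

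In the gene table the members follow the order LysX, LysB, LysC, LysD, LysE, LysP and LysS on the left arm of the third chromosome. LysX stands apart from the others, with Aplip1, mwh, meep and CG9119 between it and LysB. The other 6 members lie within the span of mwh, a gene of wing hair polarity. The order is that of the Release 6 gene table, and coordinates are left out. The lowest and the highest ratio of the group thus belong to genes at different places in the order, LysP next to the last and LysX at the first.

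Genes around the cluster were read on the same arrays. Of 14 neighbours, 5 on either side and 4 between the members, 10 had a probe set and 7 were measured. At least 2-fold higher or lower were 0 of these 7, beside 1.51% and 1.63% of all measured genes, so nothing is read from this count. Their median log2 ratio was -0.25, or 0.30 without scaling and -0.03 when the arrays were scaled on hybridization controls. Aplip1, a JNK scaffold gene beside LysX, had signals of 55.1 and 54.6, or -0.01 on the log2 scale, and CG9205 had 114 and 111. The lowest ratios were -0.46 each for CG13912, with 99.9 and 72.4, and for bab1, a transcription factor gene of leg and ovary patterning, with 49.2 and 35.8. The probe set of mwh was under the floor on both arrays, at 4.43 and 2.58.

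**Figure D4:**
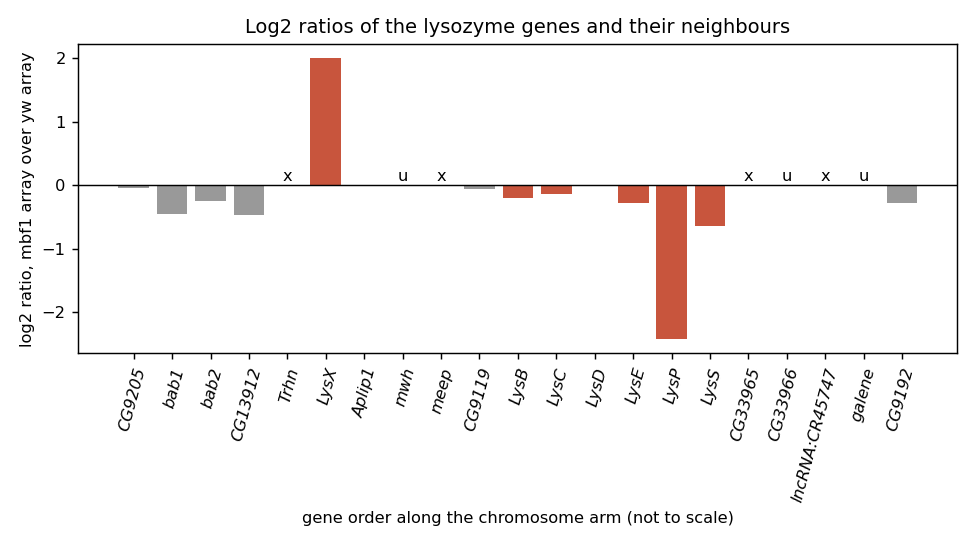
Log2 ratio of mbf1 over yw (bars, 1 array each) for the lysozyme genes (red) and their neighbours (grey) in the order of the gene table, not to scale; x marks a gene with no named probe set and u a gene under the floor on both arrays. LysX at 4.01-fold higher and LysP at -2.43 have the longest bars, and the neighbours lie between -0.46 and -0.01.

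Other enzymes that act on bacterial walls were read in 2 lists. Of 12 other listed genes of the lysozyme type 9 were measured, with a median log2 ratio of 0.01 (0.56 without scaling). At least 2-fold higher or lower were 0 of these 9, beside 1.51% and 1.63% of all measured genes, so nothing is read from this count. CG11159 was at least 1.36-fold higher, from under the floor at 6.38 to 24.2, and CG14823 was at 0.25. CG16799 had signals of 135 and 105, a ratio of -0.36, and CG6426 had 380 and 356, or -0.09. Among the amidases, which cut the peptide side of peptidoglycan, 3 of 6 were measured, with a median of 0.20 (0.75 without scaling). PGRP-SC2, a secreted amidase known from the gut, was 3.10-fold higher at 167 and 518. PGRP-LB was at 0.20 and PGRP-SB1 at 0.12.

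Midgut digestive enzymes were on the lower side in the main setting. Of 42 listed trypsin, Jonah protease, maltase, amylase and lipase genes 33 were measured, with 29 negative ratios, 0 at least 2-fold higher and 2 at least 2-fold lower. Over all measured genes 1.51% were at least 2-fold higher and 1.63% lower. These counts depended on the scaling. Without scaling 10 ratios were negative, 2 genes were higher and 1 was lower. On hybridization controls 24 were negative, 1 was higher and 1 lower. The median log2 ratio of the 33 genes was -0.43 in the main setting, beside -0.0011 for all measured genes. It was 0.12 without scaling, where all genes had a median of 0.50, and -0.22 with scaling on hybridization controls, where all genes had 0.19. Mal-A3, a maltase gene, had signals of 286 and 93.9, and mag, a gut lipase gene, had 330 and 165. The highest ratios were 0.90 for Jon99Fi and 0.65 for etaTry. LysB, LysC, LysD and LysE had higher ratios than 24, 25, 29 and 23 of the 33, and LysS had a higher ratio than 6.

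**Figure D5:**
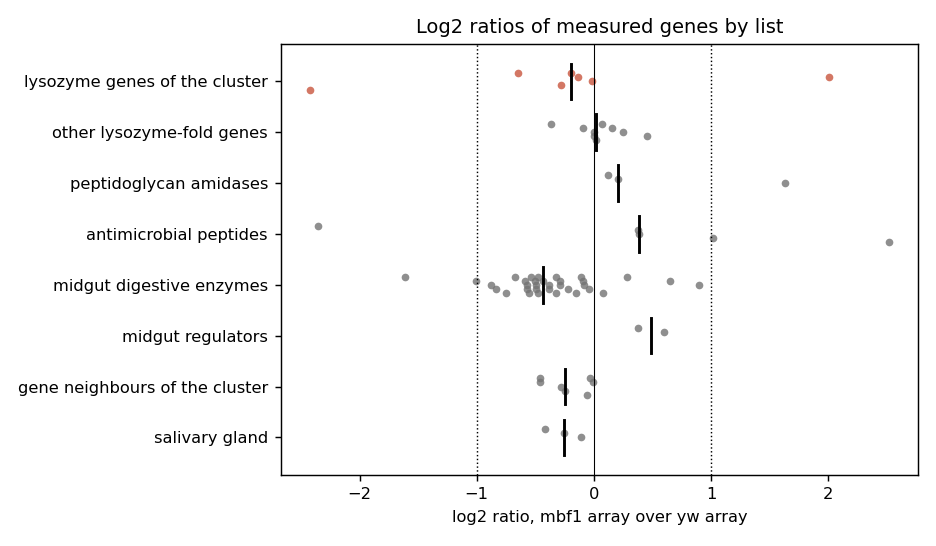
Log2 ratio of mbf1 over yw for each measured gene (points) with the median of its list (black bar), for the lysozyme genes (red) and related lists (grey), with dotted lines at 2-fold. The lysozyme genes run from -2.43 for LysP to 4.01-fold higher for LysX around a median of -0.20, and the midgut digestive enzymes have a median of -0.43.

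Antimicrobial peptide genes, which act on bacteria and fungi in the blood and at epithelia, also had members on both sides. Of 14 listed genes 6 had a probe set and 5 were measured, with a median log2 ratio of 0.38 (0.93 without scaling). At least 2-fold higher were 2 and lower was 1, beside 1.51% and 1.63% of all measured genes. With 5 genes, nothing is read from these counts. Def, a defensin, was at least 5.12-fold lower at 90.7 and 4.68, and Mtk, metchnikowin, was 5.74-fold higher at 33.1 and 190. AttD was 2.02-fold higher and Drs, drosomycin, was at 0.37.

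Among the 7676 other measured genes, the 2 nearest to each of LysP and LysX in log2 signal on both arrays were also found. For LysX they were CG14499, with 82.3 and 261 and a distance of 0.33 on the log2 scale, and Miox, the gene of myo-inositol oxygenase, with 89.6 and 260 and a distance of 0.45. For LysP they were CG9953, with signals of 188 and 1.42, and Def. Like LysP, both were under the floor on the mbf1 array, where values have no order, so no distance is given for them. The signals were compared without a floor, so the choice of these 2 genes rests in part on such values. Likeness over 2 arrays says only that the signals were alike.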

How the data were processed

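The authors deposited 1 intensity per probe set and array on a linear scale. Per the submitters' processing notes MAS5 was used, with no version or target level stated. The 2 arrays differed in level, with means after trimming 2% at each end of 60.1 (yw) and 87.8 (mbf1). The table held 14010 probe sets, 44 of them controls; GEO's platform annotation gave 1 symbol for 12444, several for 327 and none for 1239, and 0 of those with several symbols included a lysozyme gene. Symbols were updated by gene identifier through a Release 6 gene table. Ratios were centred on the median log2 ratio of probe sets above the array's median signal in both genotypes, a shift of 0.55. For a gene with several probe sets the brightest on average was taken. With 1 array per genotype, no test was made and no p-value was computed. Members, lists and alternatives were chosen with earlier results of these data known. Genes outside the cluster were named by rule: the 2 highest and the 2 lowest ratios of a list, the 2 nearest genes in signal, and mbf1; mwh was chosen after its values were seen, and the extremes of the adult and embryonic lists were left unnamed. The procedure was tested on simulated data. Python 3.11.15, numpy 2.4.6, pandas 2.3.3 and statsmodels 0.14.6 were used. No sequences are shown because no sequence table was used here.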

Additional observations from a re-analysis of the deposited data

How the results depend on the processing

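LysX kept a ratio of at least 1 in size in all 12 alternatives, between 1.95 and 2.55, and LysP kept a ratio of at most -1 in all 11 that measured it. Both genes were selected on these ratios, so nothing is read from this. The choices of floor and probe set could not change LysX, which had 1 plain probe set above each floor on both arrays. Without scaling LysX was at 2.55 and the median of the members at 0.35, by construction of the shift, since the median of all genes was then 0.50. LysP was at -3.42 with a floor at the 25th percentile, -1.41 with one at the 60th, -5.90 with no floor and -4.43 with the 10th percentile added as a pseudocount. When members had to be above the floor on both arrays, 0 were at least 2-fold lower, because LysP dropped out. When family and other shared-sequence probe sets were left out, 3 members were left and their median was -0.65. A threshold of 1.5-fold counted 2 lower members, LysP and LysS. For LysB, LysC, LysD, LysE and LysS, 51 of 56 values stayed within the robust SD of genes of like signal, and the 5 that moved were those without scaling. The 51 include values that could not move. Each of these genes had 1 probe set above each floor on both arrays, so the choices of floor and probe set repeat the main value. No paired analysis was possible because each genotype had 1 array. Leaving out a replicate was not possible for the same reason.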

Other observations

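The chip also carries 3 control probe sets named LysX, which read a bacterial spike-in and not the fly gene. They were dim on both arrays, at 6.15, 1.12 and 3.35 on the yw array and 1.29, 0.61 and 2.33 on the mbf1 array after scaling, all under the floor of 17.7.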
